A study of Homo sapiens with 8 samples.

Results

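The genes described here encode collagens, laminins and glycoproteins of the extracellular matrix. They were taken from the expression table by symbol: collagen chains, laminin alpha, beta and gamma chains, and FN1, NID1, NID2, HSPG2, AGRN, SPARC, FBN1, FBN2, TNC, VTN, ECM1 and LUM. The genes reported number 67 of 63816 gene entries, namely 44 collagen genes, 11 laminin genes and 12 other genes. RNA-seq was done on Caco-2, an established line from a human colorectal adenocarcinoma, in 4 samples with the empty plasmid pcDNA3.1 and in 4 samples with pcDNA3.1 carrying full-length SIGLEC12, the gene for Siglec-XII. Both groups had been transfected and then selected with G418, so the empty vector cells also carried the plasmid and its resistance gene. The plasmid drives its insert from a strong viral promoter, and the transfected cells were kept as stable lines. The design text counts 3 cultures for each condition and the methods speak of technical replicate libraries, so whether the 4 samples of a group came from separate cultures is not known and the p-values below may measure technical spread only. Each group stems from its own transfection, so what Siglec-XII did and how the separately selected populations differed cannot be told apart in any comparison here.

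The extracellular matrix is the protein scaffold that cells secrete around themselves. Epithelial cells such as those of the gut lining rest on a basement membrane, a thin sheet in which a laminin network and a collagen IV network are joined by nidogens, perlecan and agrin. A laminin is a trimer of an alpha, a beta and a gamma chain, and a collagen is a triple helix whose chains are hydroxylated and folded in the endoplasmic reticulum with dedicated enzymes and chaperones. Fibrillar collagens, fibronectin and tenascin-C belong to the interstitial matrix below the basement membrane, most of which is made by fibroblasts in tissue, and carcinoma cells can make parts of it themselves.

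In these cells the matrix genes were dominated by SPARC and by laminin chains, and the differences between the groups were small. Levels are given in TPM, transcripts per 1e+06 transcripts, which are scaled for transcript length and can therefore be compared between genes. Of the 67 genes, 36 reached the filter for testing, at least 1 TPM in at least 4 of the 8 samples, and 31 did not. No matrix gene passed the limma test at an adjusted p under 0.05, a limit passed by 0.648% of the 15590 tested entries. At an unadjusted limma p of 0.05 or less there were 5 matrix genes, all higher with Siglec-XII: the fibronectin gene FN1, COL6A3, COL1A1, TNC and COL12A1. The share of all tested entries at that limit was 16.5%, with 13.9% higher and 2.61% lower, so 5 of 36 was near the background. In 3 of the 36 genes (FN1, COL6A3 and COL12A1) every Siglec-XII sample lay above every empty vector sample, against 9.17% of all tested entries. In bulk RNA, fewer cells of a kind and less RNA per cell cannot be told apart.

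The transfected gene was read as a check of the labels. SIGLEC12 was at 0.0399 to 0.122 TPM in the empty vector samples and at 1582 to 1734 TPM in the Siglec-XII samples (exact permutation test, two-sided, p = 0.0286, the smallest that this permutation test can give with 4 against 4 samples). Of 14 markers of colon epithelium, 3 passed the filter (EPCAM, CDX1 and CDX2), while PHGR1, SI, KRT20 and FABP1 were at 0 in every sample and the brush border gene VIL1 had a mean of 0.537 and 0.745 TPM. The summed level of the 14 was 710 to 736 TPM with the empty vector and 735 to 792 TPM with Siglec-XII. This sum rested mostly on EPCAM, with means over the 8 samples of 553 TPM for EPCAM, 147 TPM for CDX1 and 40.6 TPM for CDX2. The part of the difference between the summed levels in the values below was not tested. Of 14 trophoblast markers, 11 passed the filter, with a summed level of 1241 to 1423 TPM and 1295 to 1368 TPM. Means over the 8 samples were 33.0 to 380 TPM for GATA3, HSD3B1, KRT7, VGLL1, TFAP2C and TFAP2A. CYP19A1 was at 3.59 TPM, and ERVW-1, ERVFRD-1 and PSG1 at 1.22 to 1.40 TPM, close to the filter. The placental hormone genes CGA, CSH1, CGB3 and CGB5 were at 0.0287 to 0.785 TPM. The trophoblast markers were thus mixed as well. The defining enterocyte markers thus go against the colon label, and the cells are called Caco-2 here only as the labels do. Of 8 fibroblast markers only PDGFRB passed the filter, THY1 was at 0 in every sample, and the summed level was 4.26 to 6.55 TPM and 3.33 to 6.43 TPM. Of 4 endothelial markers only CDH5 passed, with a summed level of 5.41 to 11.5 TPM and 6.39 to 7.26 TPM. Across all tested entries the differences leaned upward, with 68.1% above 0, a median log2 difference of 0.07, and 53 higher against 48 lower at an adjusted p under 0.05. That split became 28 against 58 after quantile normalization and 24 against 58 with equal upper quartiles.

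Promoter sequences were read from RefSeq windows of the GRCh38.p14 build, 250 bases before to 50 bases after a start, and were placed on GRCh37 by an exact match. A window was found for 51 of the 67 genes, and COL1A1, COL1A2, AGRN and COL9A3 were among the 16 without one. The FN1 stretch is shown because FN1 had the largest difference between the groups of the 36 tested genes. The stretch between COL4A1 and COL4A2 and the one before COL4A5 are shown because type IV collagen genes lie head to head in pairs, and the members of a pair stood at like levels in one case and at unequal levels in the other. Capitals mark matches, on either strand, to the TATA box letters TATAAA, the CCAAT box letters CCAAT, the GC box letters GGGCGG, the cyclic AMP response element (CRE) letters TGACGTCA and the AP-1 site letters TGANTCA, N being any base.

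FN1, 250 bases before its start, minus strand, GRCh37 chr2:216300792-216301041: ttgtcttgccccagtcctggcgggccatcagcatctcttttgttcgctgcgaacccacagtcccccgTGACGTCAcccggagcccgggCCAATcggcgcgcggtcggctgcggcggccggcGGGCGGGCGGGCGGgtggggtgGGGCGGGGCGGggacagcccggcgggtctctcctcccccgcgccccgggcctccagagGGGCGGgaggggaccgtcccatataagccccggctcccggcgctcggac
COL4A1 to COL4A2, all 126 bases between the RefSeq starts, plus strand, GRCh37 chr13:110959505-110959630: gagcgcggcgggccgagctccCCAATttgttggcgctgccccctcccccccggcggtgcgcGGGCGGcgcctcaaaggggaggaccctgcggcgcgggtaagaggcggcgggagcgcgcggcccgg
COL4A5, 250 bases before its start, plus strand, GRCh37 chrX:107682818-107683067: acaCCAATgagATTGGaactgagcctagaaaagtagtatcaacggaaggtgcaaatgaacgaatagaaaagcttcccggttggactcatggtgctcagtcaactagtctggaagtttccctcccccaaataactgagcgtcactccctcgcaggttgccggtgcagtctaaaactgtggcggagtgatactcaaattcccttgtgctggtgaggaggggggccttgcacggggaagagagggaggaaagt

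The FN1 stretch held 76.4% G and C, 1 CRE, 1 CCAAT box and 6 GC box matches, some of which overlap. The CRE letters stood in 1 of the 65 windows of the matrix genes (1.54%), that of FN1, beside 1.85% of all 35116 windows. The stretch shared by COL4A1 and COL4A2 held 80.2% G and C, with 1 CCAAT box and 1 GC box, and the COL4A5 stretch held 51.2% G and C with 2 CCAAT boxes on opposite strands. GC boxes were found in 39 of the 65 matrix windows (60.0%) against 45.0% of all windows, CCAAT boxes in 21 against 34.6%, TATA boxes in 9 against 11.5% and AP-1 letters in 4 against 7.71%. These are matches of letters in a window and no measure of binding.

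The 67 genes together took 1513, 1656, 1559 and 1611 TPM in empty vector replicates 1 to 4 and 1677, 1661, 1675 and 1697 TPM in Siglec-XII replicates 1 to 4, and all values per sample below are given in this order. The lowest Siglec-XII sum (1661 TPM) lay just above the highest empty vector sum (1656 TPM), and the difference of the sums was not tested. Of all tested entries 68.1% had a log2 difference above 0, and 9.17% were higher with Siglec-XII without overlap. These sums were 0.158% ± 0.00620 (SD, n = 4) of each empty vector library and 0.168% ± 0.00148 of each Siglec-XII library. Laminin chains made up 42.2% ± 1.81 and 40.7% ± 1.99 (SD, n = 4) of the matrix TPM, collagens 24.1% ± 0.623 and 24.9% ± 1.03, and SPARC alone 23.5% ± 1.46 and 23.7% ± 0.643. The 12 highest genes by mean TPM were, in order, SPARC, LAMC1, LAMB1, LAMA5, AGRN, COL6A3, COL9A3, TNC, COL18A1, COL1A1, LAMB2 and COL26A1, with SPARC at rank 368 and COL26A1 at rank 5590 of all entries. SPARC exceeded LAMC1, and LAMC1 exceeded LAMB1, in all 8 samples. Several neighbours in this order were not separated: LAMB1 was above LAMA5 in 6 of 8 samples, AGRN above COL6A3 in 5, COL9A3 above TNC in 6 and COL18A1 above COL1A1 in 6.

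**Figure D1:**
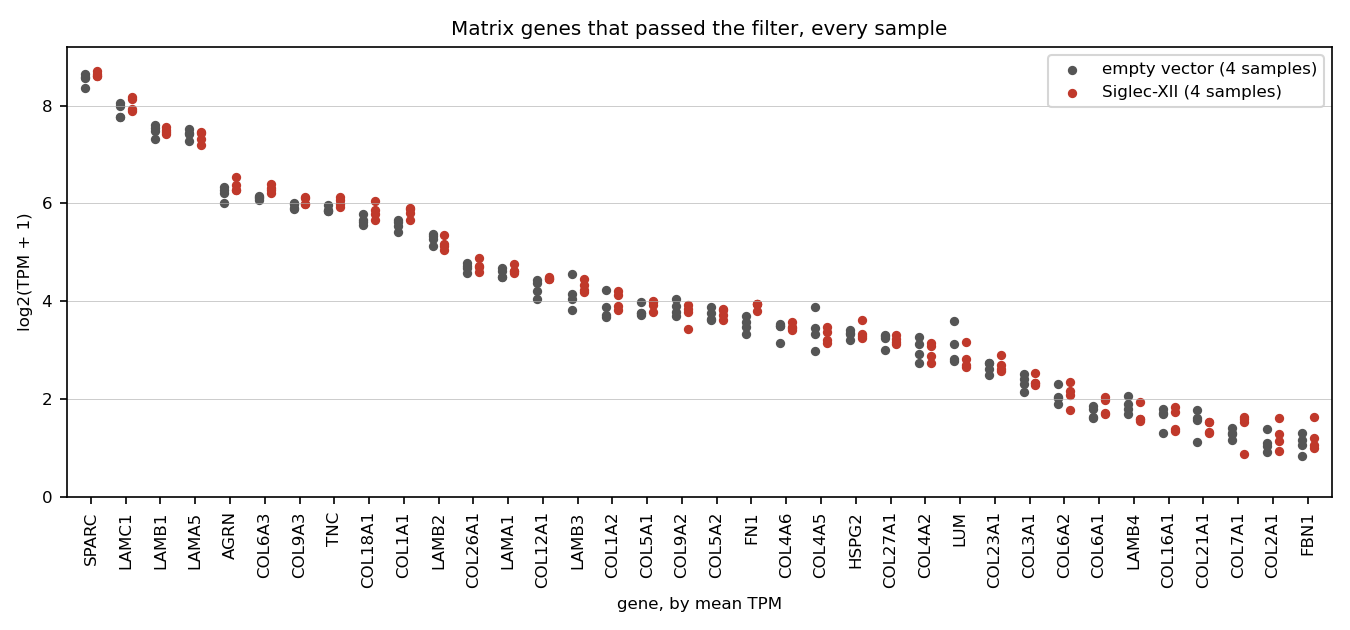
Level of each of the 36 matrix genes that passed the filter as log2(TPM + 1) on the vertical axis, with genes ordered by mean TPM and 1 point per sample (grey, empty vector; red, Siglec-XII). SPARC and the laminin chains LAMC1, LAMB1 and LAMA5 stand highest, and the red points of FN1, COL6A3 and COL12A1 all lie above the grey ones.

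Among the laminin alpha chains, which carry the domains that cell receptors bind, LAMA5 was the main one. LAMA5 stood at 153, 173, 169 and 183 TPM with the empty vector and 172, 175, 145 and 158 TPM with Siglec-XII. The groups overlapped, and the log2 difference was -0.06 ± 0.0729 (SE; limma adjusted p = 0.699). LAMA1, the alpha chain of early embryonic basement membranes, was lower, with a TPM ratio of LAMA5 to LAMA1 of 5.59 to 8.01 over the 8 samples. The remaining alpha chains did not pass the filter, LAMA3 reaching 0.476 TPM at most, LAMA2 0.163 TPM and LAMA4 0.0612 TPM.

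The beta chain LAMB1 and the gamma chain LAMC1, which form a trimer with the alpha 5 chain, were the other laminin genes above 100 TPM. LAMB1 measured 187, 178, 159 and 193 TPM, then 179, 169, 188 and 174 TPM with Siglec-XII, and its log2 difference was -0.01 ± 0.0636 (SE; limma adjusted p = 0.948). The gamma chain LAMC1 measured 253, 265, 215 and 216 TPM with the empty vector and 280, 244, 288 and 236 TPM with Siglec-XII. These groups overlapped too, with a log2 difference of 0.14 ± 0.0894 (SE; unadjusted limma p of 0.145, adjusted p = 0.460). The ratio of LAMC1 to LAMB1 ran from 1.12 to 1.56 over the 8 samples, and that of LAMC1 to LAMA5 from 1.18 to 1.98. LAMB2, which also pairs with the alpha 5 chain and is the beta chain known from the neuromuscular junction and the glomerulus, stood at 37.4, 34.1, 39.1 and 40.3 TPM against 35.1, 40.0, 34.2 and 32.1 TPM, with a log2 difference of -0.09 ± 0.0783 (SE; limma adjusted p = 0.583). LAMB1 exceeded LAMB2 by a ratio of 4.07 to 5.49.

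LAMB3 encodes a beta chain and LAMA3 an alpha chain of the laminin that anchors epithelia such as the skin. LAMB3 had a mean of 16.9 ± 3.98 and 18.7 ± 1.67 TPM (SD, n = 4; limma adjusted p = 0.612). LAMB3 exceeded LAMA3 by a ratio of 37.3 to 250, which rests on LAMA3 values of 0.0836 to 0.476 TPM. LAMB4 had means of 2.64 ± 0.387 and 2.18 ± 0.422 TPM (SD, n = 4), a log2 difference of -0.20 ± 0.135 (SE; limma adjusted p = 0.501). LAMC3 did not pass the filter. Of the 11 laminin genes 7 were tested, all with transcripts of 4000 nt or more, and none had an unadjusted p of 0.05 or less. Among all tested entries of that length 20.3% were higher with Siglec-XII at that limit. Of the 7 laminin genes 3 had a log2 difference above 0, beside 78.1% of the entries of that length. The laminin median was -0.01, beside 0.10 for entries of that length and 0.07 for all tested entries.

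**Figure D2:**
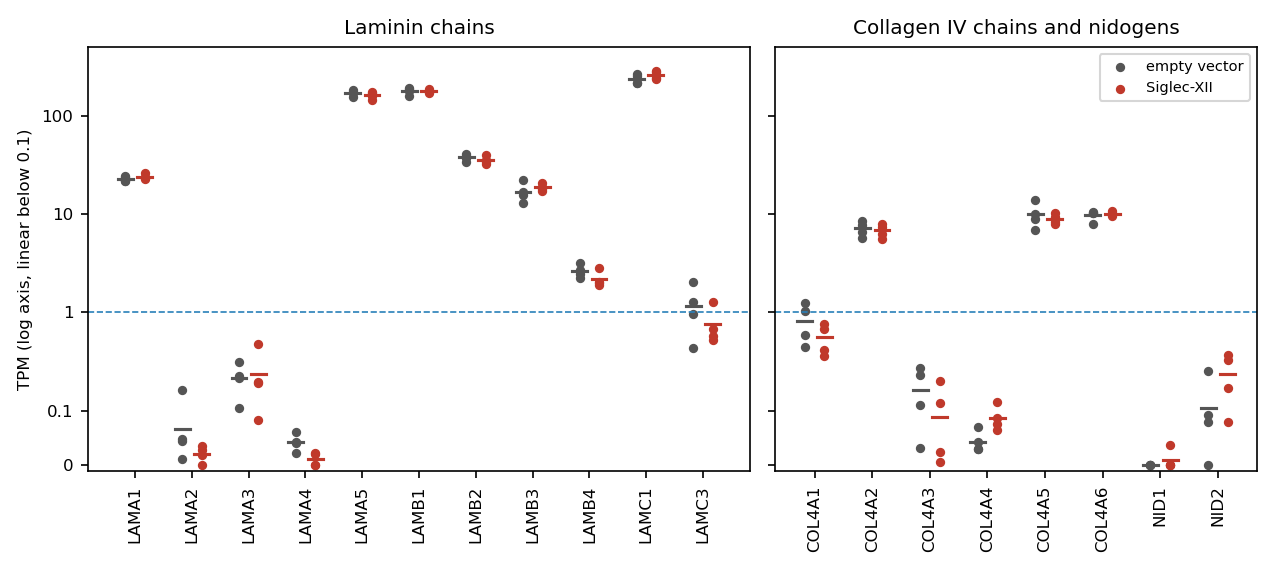
TPM of the 11 laminin chains, the collagen IV chains and the nidogens in each sample (grey, empty vector; red, Siglec-XII; short bars, means of 4 samples), on a log axis that is linear below 0.1 TPM. The dashed line is the 1 TPM of the filter: LAMA5, LAMB1 and LAMC1 stand above 100 TPM, LAMA3 stands below the line while LAMB3 stands above it, COL4A1 lies near the line below COL4A2, and NID1 is at or near 0.

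Collagen IV chains form the network of the basement membrane, and their genes lie head to head in pairs. COL4A2 and COL4A1, which are usually expressed together and whose chains form one triple helix, were at unequal levels here. COL4A2 measured 6.59, 8.56, 7.70 and 5.65 TPM with the empty vector and 5.63, 7.42, 7.86 and 6.32 TPM with Siglec-XII. COL4A1 measured 0.588, 1.24, 0.449 and 1.02 TPM, then 0.769, 0.417, 0.356 and 0.684 TPM, and did not pass the filter. COL4A2 was above COL4A1 in all 8 samples, with a ratio of 5.53 to 22.1. The RefSeq starts of the pair are 126 bases apart, in the sequence shown above, although the GENCODE annotation has further COL4A2 transcripts that begin within or before this stretch. COL4A5 and COL4A6, whose chosen RefSeq starts are 379 bases apart on chromosome X, were by contrast at like levels. COL4A5 was at 8.99, 13.7, 9.94 and 6.89 TPM and at 10.2, 9.28, 7.84 and 8.25 TPM, COL4A6 at 7.83, 10.3, 10.2 and 10.6 TPM and at 10.8, 9.60, 10.1 and 9.92 TPM. Their ratio ran from 0.651 to 1.33, on both sides of equal levels. COL4A3 and COL4A4, the pair known from the kidney and lung, were far lower. COL4A3 measured 0.0312, 0.269, 0.114 and 0.233 TPM, then 0.0246, 0.201, 0.00668 and 0.119 TPM, and COL4A4 measured 0.0301, 0.0433, 0.0694 and 0.0305 TPM, then 0.0859, 0.0652, 0.122 and 0.0754 TPM. Neither reached the filter in any sample. No collagen IV gene had an unadjusted p of 0.05 or less, the log2 differences of the 3 tested chains being 0.06 for COL4A6, -0.05 for COL4A2 and -0.11 for COL4A5, each with a 95% interval that spans 0.

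The linkers of the basement membrane were uneven. AGRN, which encodes the heparan sulfate proteoglycan agrin, stood at 63.6, 80.02, 73.1 and 76.7 TPM with the empty vector and 76.8, 82.1, 76.1 and 91.4 TPM with Siglec-XII. The groups overlapped and the log2 difference was 0.15 ± 0.0829 (SE; limma adjusted p = 0.387). HSPG2, the perlecan gene, had means of 8.999 ± 0.585 and 9.41 ± 1.30 TPM (SD, n = 4; limma adjusted p = 0.836). The nidogens, which bind the gamma 1 chain of laminin to collagen IV, were near 0: NID1 was listed at 0 in 7 of 8 samples and at 0.0373 TPM in the other, and NID2 reached 0.369 TPM at most.

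Of 11 fibrillar collagen genes 7 passed the filter. COL1A1 (ENSG00000108821, chromosome 17, 48261462 to 48278993 in GRCh37), the alpha 1 chain of type I collagen, measured 41.9, 48.0, 49.3 and 45.2 TPM with the empty vector and 49.3, 58.1, 54.9 and 59.1 TPM with Siglec-XII. Siglec-XII replicate 1 and empty vector replicate 3 were at the same level, and the other Siglec-XII samples lay above all empty vector samples. Its log2 difference was 0.26 ± 0.0732 (SE, 95% interval 0.09 to 0.42; unadjusted limma p of 0.00630, adjusted p = 0.149). COL1A2, the other chain of type I collagen, had means of 13.9 ± 2.80 and 15.3 ± 2.05 TPM (SD, n = 4) and a log2 difference of 0.14 ± 0.137 (SE; limma adjusted p = 0.646). The ratio of COL1A1 to COL1A2 was 2.69 to 4.40, where the common trimer holds 2 alpha 1 chains for 1 alpha 2 chain. COL5A1 and COL5A2, which nucleate type I fibrils, were near equal, with a ratio of 1.01 to 1.26, and COL3A1 had means of 4.09 and 4.18 TPM. Apart from COL1A1 no fibrillar collagen had an unadjusted p of 0.05 or less. The median over the 7 was 0.12, and 6 of them were above 0, beside 78.1% of all tested entries with transcripts of 4000 nt or more, a length that all 7 reach.

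Collagen VI forms beaded microfilaments from an alpha 1, an alpha 2 and a long alpha 3 (or alpha 5 or 6) chain. COL6A3 (ENSG00000163359, chromosome 2, 238232646 to 238322971) stood at 68.2, 69.2, 66.3 and 70.6 TPM with the empty vector and at 78.7, 72.9, 76.8 and 83.2 TPM with Siglec-XII. All Siglec-XII samples were above all empty vector samples. The log2 difference was 0.18 ± 0.0505 (SE, 95% interval 0.07 to 0.29), with a limma p of 0.00558 and an adjusted p of 0.143. Its partner chains were much lower: the ratio of COL6A3 to COL6A1 was 26.9 to 33.5 and that of COL6A3 to COL6A2 was 17.5 to 31.8. COL6A1 and COL6A2 had log2 differences of 0.13 ± 0.128 and 0.02 ± 0.147 (SE; limma adjusted p = 0.655 and adjusted p = 0.953). COL6A5 and COL6A6 did not pass the filter.

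The FACIT collagens attach to the surface of fibrils. COL12A1 (ENSG00000111799, chromosome 6, 75794042 to 75915983) was at 19.7, 20.7, 17.5 and 15.5 TPM with the empty vector and at 20.9, 21.6, 21.0 and 21.1 TPM with Siglec-XII. The Siglec-XII samples were all higher, although empty vector replicate 2 lay only just below them. The log2 difference was 0.20 ± 0.0867 (SE, 95% interval 0.01 to 0.40; unadjusted limma p of 0.0442, adjusted p = 0.290), and the unadjusted p was 0.05 or less in 7 of 17 alternatives, the p ranging from 0.0133 to 0.333. COL9A3, a chain of cartilage collagen IX, was the highest FACIT gene, at 58.2, 58.9, 62.3 and 63.2 TPM against 62.6, 62.1, 69.1 and 68.3 TPM. Its log2 difference was 0.11 ± 0.0545 (SE; limma adjusted p = 0.354). COL9A3 exceeded COL9A2 by a ratio of 3.82 to 6.38, and COL9A1, the remaining chain, stayed at 0 to 0.0404 TPM except for 0.584 TPM in Siglec-XII replicate 2. Of 10 FACIT genes 5 were tested, and their median log2 difference was -0.05.

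COL18A1 belongs to the multiplexins and encodes a basement membrane collagen with heparan sulfate chains whose cleavage releases endostatin. It stood at 45.8, 53.7, 49.8 and 48.3 TPM with the empty vector and at 49.4, 57.2, 54.3 and 65.4 TPM with Siglec-XII. The groups overlapped, with a log2 difference of 0.19 ± 0.0856 (SE; limma adjusted p = 0.314). Of 4 transmembrane collagens only COL23A1 was tested, at 5.24 ± 0.510 and 5.50 ± 0.654 TPM (SD, n = 4). COL7A1, the anchoring fibril collagen, had means of 1.44 ± 0.171 and 1.70 ± 0.585 TPM, while COL26A1, a collagen with short triple helices, was higher. COL26A1 measured 22.8, 24.7, 26.4 and 25.2 TPM with the empty vector and 23.0, 24.9, 25.3 and 28.6 TPM with Siglec-XII, and these groups overlapped with a log2 difference of 0.04 ± 0.0762 (SE; limma adjusted p = 0.857). None of these 4 genes had an unadjusted p of 0.05 or less. Over all 44 collagens 22 were tested, 3 (13.6%) were higher at an unadjusted p of 0.05 or less beside 13.9% of all tested entries, 16 were above 0 beside 68.1%, and the median was 0.06 beside 0.07.

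FN1 (ENSG00000115414, chromosome 2, 216225163 to 216300796 in GRCh37) encodes fibronectin, the adhesive glycoprotein that integrins bind and assemble into fibrils. It measured 9.04, 10.9, 11.9 and 10.1 TPM with the empty vector and 12.9, 14.3, 14.4 and 14.4 TPM with Siglec-XII. Every Siglec-XII sample was above every empty vector sample, and Siglec-XII replicate 1 was the lowest of its group. On the log2(TPM + 1) scale the levels were 3.52 ± 0.15 and 3.90 ± 0.07 (SD, n = 4), and the difference of 0.39 ± 0.0892 (SE, 95% interval 0.19 to 0.59) was the largest of the 36 genes. The limma p was 0.00171 and the adjusted p 0.102. Over 17 alternatives the FN1 difference ran from 0.27 to 0.44 with an unadjusted p of 0.05 or less in all 17 and an adjusted p of 0.0784 to 0.267.

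TNC (ENSG00000041982, chromosome 9, 117781854 to 117880486) encodes tenascin-C, a glycoprotein of tumour stroma and wounds that modulates adhesion to fibronectin. TNC was at 56.5, 57.3, 61.8 and 56.8 TPM with the empty vector and at 66.0, 59.7, 62.3 and 68.6 TPM with Siglec-XII. Empty vector replicate 3 lay within the Siglec-XII range. The log2 difference was 0.14 ± 0.0566 (SE, 95% interval 0.01 to 0.27; unadjusted limma p of 0.0351, adjusted p = 0.266), and the unadjusted p was 0.05 or less in 6 of 17 alternatives, ranging from 0.0167 to 0.665. SPARC, a collagen-binding protein that regulates matrix assembly, stood at 329, 380, 385 and 400 TPM and at 389, 400, 389 and 415 TPM. Only empty vector replicate 1 stood apart, and the log2 difference was 0.10 ± 0.0612 (SE; limma adjusted p = 0.465). LUM, a small leucine-rich proteoglycan of collagen fibrils, had the lowest difference of the 36 genes, -0.24 ± 0.190 (SE; limma adjusted p = 0.570), with 7.63 ± 2.39 and 6.21 ± 1.24 TPM (SD, n = 4). FBN1, the fibrillin gene, had means of 1.14 and 1.37 TPM, while FBN2, VTN and ECM1 did not pass the filter.

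The 31 genes that did not pass the filter had low values throughout. The highest value of any of them was 2.03 TPM, for LAMC3 in empty vector replicate 4. COL17A1, the hemidesmosome collagen of epithelia, reached 1.04 TPM, COL22A1 1.44 TPM, ECM1 1.09 TPM and VTN 1.09 TPM. Those under 0.1 TPM in every sample were LAMA4, COL11A1, FBN2, COL13A1, COL14A1, COL25A1, COL24A1 and NID1. The symbol COL11A2 stood on 7 entries, of which the highest was kept, at no more than 0.277 TPM. With the filter removed all 67 genes could be fitted, 41 were above 0 and 5 had an unadjusted limma p of 0.05 or less, beside 8.93% of 39568 entries.

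The 36 tested genes had a median log2 difference of 0.06 beside 0.07 for all tested entries, and 25 of them were above 0 against 68.1% of all tested entries. Differences ran from -0.24 to 0.39, and the median SE was 0.0958. After quantile normalization the median of the matrix genes was -0.00139 beside 0.00954 for all tested entries, with 18 of the 36 above 0. Of the 11 genes below 0, none had an unadjusted limma p of 0.05 or less.

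**Figure D3:**
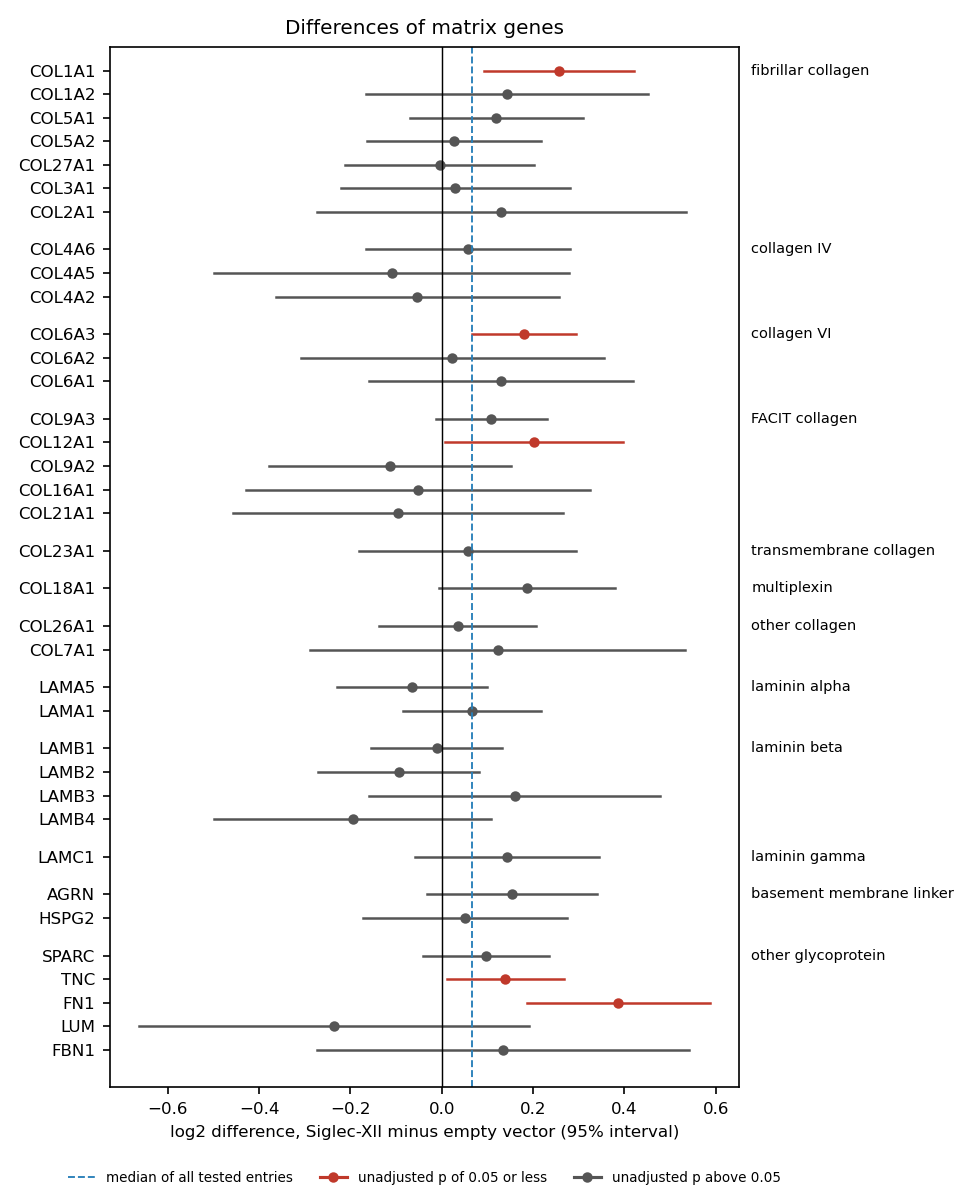
Log2 difference of each tested matrix gene, Siglec-XII minus empty vector, on the horizontal axis, with its limma 95% interval and genes grouped by class (red, unadjusted p of 0.05 or less; dashed line, the median of all tested entries, 0.07). FN1, COL1A1, COL12A1, COL6A3 and TNC are the genes whose intervals lie above 0.

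Matrix genes have long transcripts, and in these data longer transcripts had higher differences. Among protein-coding entries the median log2 difference was 0.03 for canonical transcripts under 2000 nt, 0.07 for 2000 to 4000 nt, 0.09 for 4000 to 6000 nt, 0.11 for 6000 to 8000 nt and 0.12 from 8000 nt. Of the 36 tested matrix genes 29 had a transcript of 4000 nt or more, and these included all 5 genes with an unadjusted limma p of 0.05 or less. Among all tested entries of that length, 20.3% were higher at that limit, 13.4% had Siglec-XII samples all above the empty vector samples, and 78.1% were above 0. The 5 of 29 long matrix genes were near this background, and their median of 0.12 stood beside 0.10 for all tested entries of that length. The 7 shorter matrix genes had a median of 0.04. With the trend over transcript length removed from each sample, the median of the matrix genes became -0.02 and that of all entries with a length 0.00. FN1 kept its unadjusted p of 0.05 or less in that analysis, COL1A1, COL6A3, TNC and COL12A1 did not, and LAMA5 had a log2 difference of -0.18 with an unadjusted p of 0.0257.

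**Figure D4:**
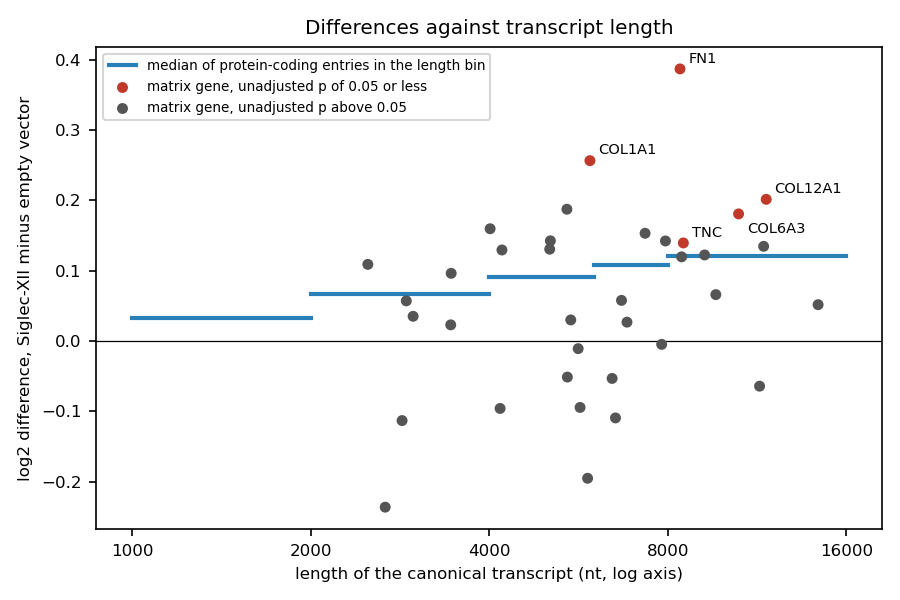
Log2 difference of the 36 tested matrix genes, Siglec-XII minus empty vector, against the length of the canonical transcript in nt on a log axis (red, unadjusted limma p of 0.05 or less), with the median of all protein-coding entries in each length bin as blue bars (the first bar holds all lengths under 2000 nt). The bars climb from 0.03 to 0.12 with length, and FN1 stands furthest above them at 0.39.

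Of 21 listed genes of collagen synthesis 20 were tested, and none had an adjusted limma p under 0.05. At an unadjusted p of 0.05 or less there were 6, all higher with Siglec-XII, beside 13.9% of all tested entries, and the median over the 20 was 0.11 beside 0.07. SERPINH1, the collagen chaperone HSP47, was at 460, 469, 485 and 475 TPM with the empty vector and at 520, 524, 514 and 550 TPM with Siglec-XII. Its groups did not overlap, and the log2 difference was 0.16 ± 0.0386 (SE; unadjusted limma p of 0.00251, adjusted p = 0.109, and 0.0930 to 0.321 over 17 alternatives). PLOD1, a lysyl hydroxylase, stood at 63.5, 75.2, 70.2 and 71.8 TPM against 78.7, 81.0, 75.6 and 87.2 TPM, again without overlap, with a log2 difference of 0.20 ± 0.0644 (SE; limma adjusted p = 0.189). The other 4 were the prolyl 4-hydroxylase subunit P4HA1 (0.16), the lysyl hydroxylase PLOD3 (0.16), the prolyl 3-hydroxylase P3H1 (0.17) and the cyclophilin PPIB (0.10), with limma p values of 0.0214, 0.0295, 0.0305 and 0.0363. Of these only PPIB had overlapping groups, so that 5 of the 20 lay higher without overlap, beside 9.17% of all tested entries. The unadjusted limma p was 0.05 or less in 11, 10, 8 and 8 of 17 alternatives for P4HA1, PLOD3, P3H1 and PPIB. These 4 lost it after quantile normalization and with equal upper quartiles, while SERPINH1 and PLOD1 kept it in all 17. P4HB, the most abundant gene of the list and the partner of all prolyl 4-hydroxylase subunits, had a log2 difference of -0.06 ± 0.0758 (SE; limma adjusted p = 0.758).

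Of 15 genes that process or cross-link secreted matrix, 7 were tested. TGM2, a transglutaminase that cross-links fibronectin, measured 38.6, 59.8, 42.7 and 38.4 TPM with the empty vector and 55.3, 55.9, 51.6 and 57.4 TPM with Siglec-XII. Empty vector replicate 2 was higher than the rest of its group, and the log2 difference was 0.31 ± 0.127 (SE; unadjusted limma p of 0.0355, adjusted p = 0.268). The lysyl oxidase LOXL2 was at 31.4, 43.6, 33.3 and 34.7 TPM against 42.1, 39.8, 41.5 and 42.2 TPM, with the same sample apart and a log2 difference of 0.22 ± 0.0921 (SE; unadjusted limma p of 0.0422, adjusted p = 0.285). Even the unadjusted limma p was 0.05 or less in only 6 of 17 alternatives for TGM2 and 4 of 17 for LOXL2. Without empty vector replicate 2 the limma adjusted p was 0.0197 for TGM2 and 0.0463 for LOXL2, against highest values of 0.562 and 0.563 over the 17 alternatives. The other 5 had limma p values above 0.05, and the list's median was 0.05. So 2 of the 7 were higher at the unadjusted limit, beside 13.9% of all tested entries.

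Matrix receptors other than integrins were tested for 8 of 9 genes. The collagen receptor DDR1 measured 52.0, 61.0, 48.3 and 52.2 TPM with the empty vector and 61.4, 66.0, 60.1 and 58.6 TPM with Siglec-XII, with a log2 difference of 0.20 ± 0.0732 (SE; unadjusted limma p of 0.0199, adjusted p = 0.219). DDR1 stood on 7 entries, of which the highest was used, and its unadjusted p was 0.05 or less in 12 of 17 alternatives. The syndecans SDC2 and SDC3, heparan sulfate proteoglycans of the cell surface, were low, at 3.37 ± 0.738 and 4.81 ± 0.892 TPM for SDC2 and 3.23 ± 0.482 and 4.06 ± 0.203 TPM for SDC3 (SD, n = 4). Their log2 differences were 0.41 ± 0.158 and 0.26 ± 0.110 (SE; unadjusted limma p of 0.0274 and 0.0395, adjusted p = 0.241 and adjusted p = 0.279). The SDC2 groups overlapped and the SDC3 groups did not. Their unadjusted p was 0.05 or less in 9 and 7 of the 16 alternatives in which they were tested. BCAM, a receptor for the alpha 5 chain of laminin, was at 399, 404, 422 and 387 TPM against 371, 385, 335 and 388 TPM, with a log2 difference of -0.12 ± 0.0547 (SE; unadjusted limma p of 0.0474, adjusted p = 0.298). The unadjusted p of BCAM was 0.05 or less in 8 of 17 alternatives. BCAM was the only gene of the 3 lists below 0 at that unadjusted limit, where 2.61% of all tested entries were lower. Of the 8 receptor genes 3 were higher at that limit, beside 13.9% of all tested entries. DAG1, the dystroglycan gene, and SDC4 had log2 differences of 0.08 and 0.09 (limma adjusted p = 0.381 and adjusted p = 0.373). No gene of the maturation or receptor list had an adjusted p under 0.05.

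**Figure D5:**
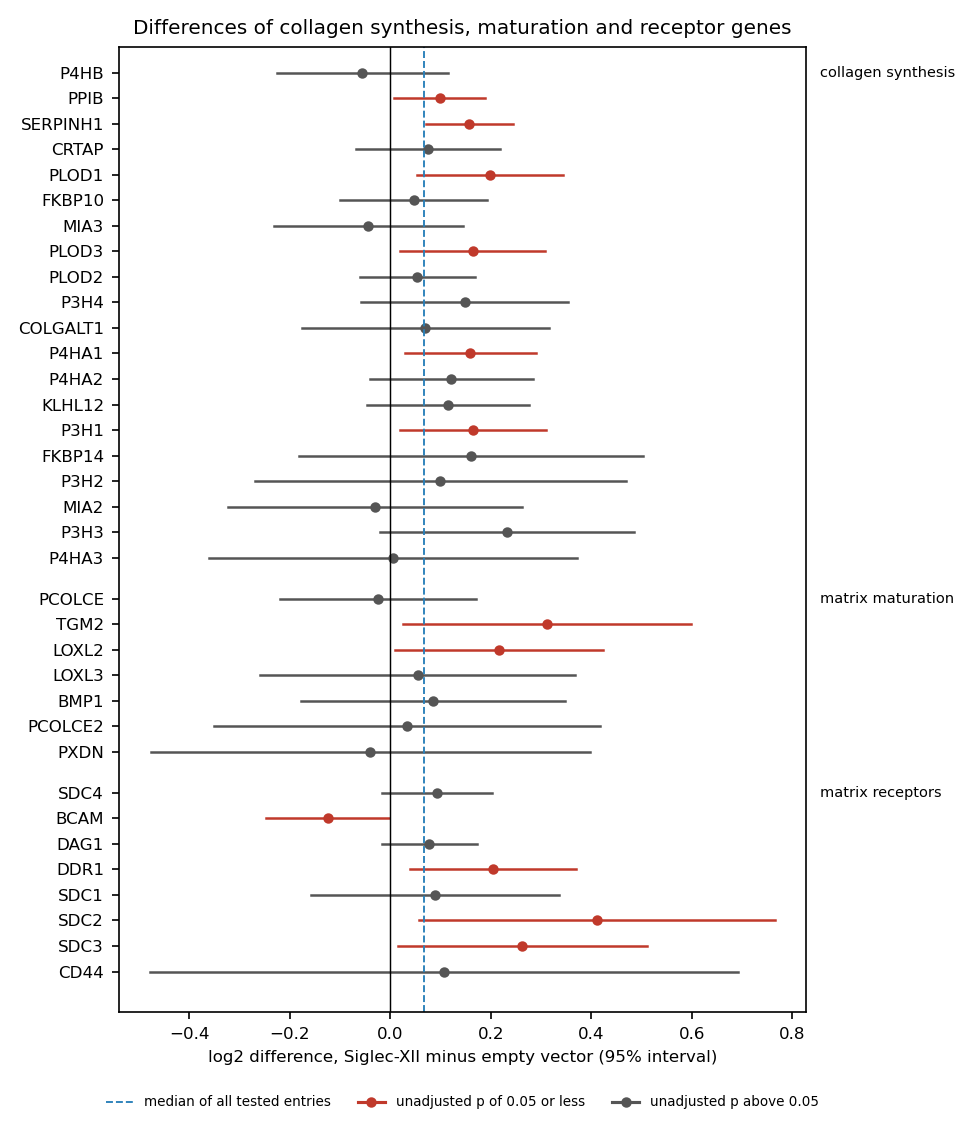
Log2 difference of each tested gene of the collagen synthesis, matrix maturation and matrix receptor lists, Siglec-XII minus empty vector, with its limma 95% interval (red, unadjusted p of 0.05 or less; dashed line, the median of all tested entries, 0.07). SERPINH1 at 0.16, PLOD1 at 0.20 and SDC2 at 0.41 lie above 0 with their intervals, and BCAM at -0.12 lies below 0.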

How the data were processed

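The authors quantified reads with kallisto (0.45.0 in the submitters' processing notes) against hg19 and deposited 1 table of log2 values, log2 of TPM plus 1, with 1 column per sample. Each column sums to 1e+06 TPM, so the read depth behind a value is unknown, no counting intervals were given, and the study's count test could not be used. The labels name a total RNA kit and the methods an mRNA kit, which capture non-polyadenylated RNA differently. Values were used as deposited.

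Entries at 1 TPM or more in at least 4 samples (15590) were compared between groups on the log2(TPM + 1) scale with limma 3.58.1 (R 4.3.3): lmFit, eBayes with a trend, Benjamini-Hochberg over all tested entries, two-sided. Fold changes on this scale understate changes of low genes. SIGLEC12 was compared by an exact permutation test over 70 labellings. The pipeline was tested on simulated data. Positions and canonical transcript lengths came from GENCODE lifted to GRCh37, where 86.9% of gene IDs and 66 of 67 members were found. Strand was marked by the kit, but overlapping genes may share reads.

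The symbol rule matched 68 genes, of which 1 is not reported here. Members and lists were chosen with earlier results of these data known. Values per sample were given for members with an unadjusted p of 0.05 or less, the 12 members with the highest mean TPM and both genes of each head-to-head collagen IV pair, and other members by range and count. Values per sample of SERPINH1, PLOD1, TGM2, LOXL2, DDR1 and BCAM were added after their values were seen. Alternatives were a pseudocount of 0.1, no filter, a mean of at least 5 TPM, quantile and upper quartile scaling, the replicate number as a block, no trend, array weights, removal of the length trend and each sample left out.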

Additional observations from a re-analysis of the deposited data

Results flagged for a closer look

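In groups of 4 samples, 6 of 74 groups (those of the tested matrix genes and of SIGLEC12) held 1 sample far from the other 3 (its gap to the nearest sample, as a share of the group's range, exceeded Dixon's 95% critical value), where chance gives about 1 in 20. All values here are log2(TPM + 1). For FN1, Siglec-XII replicate 1 was at 3.79 and the others of its group at 3.93 to 3.95. For TNC, empty vector replicate 3 was at 5.97 and the others at 5.85 to 5.87. For COL5A1, empty vector replicate 2 was at 3.98 and the others at 3.72 to 3.76. For COL4A6, empty vector replicate 1 was at 3.14 and the others at 3.49 to 3.53. For LAMB4, Siglec-XII replicate 2 was at 1.93 and the others at 1.54 to 1.60. For COL7A1, Siglec-XII replicate 3 was at 0.88 and the others at 1.52 to 1.63. The 6 values came from 6 different samples.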

How the results depend on the processing

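Matrix genes at an adjusted p under 0.05 numbered 0 in each of the 17 alternatives. At an unadjusted p of 0.05 or less the count of 5 became 3 after quantile normalization, with equal upper quartiles or without the trend, 2 with the length trend removed and 3 to 7 with each sample left out. The share of all tested entries at that limit moved too, from 16.5% to 12.6%, 12.9%, 15.6% and 12.3% in the same order. With each sample left out it was 12.7% to 19.4%, with no filter 8.93% and with a mean of at least 5 TPM 20.2%. These shares are the background of the list counts below as well. The median log2 difference of the matrix genes, 0.0617, became 0.0267 with no filter (all entries 0.0177) and 0.00568 with equal upper quartiles (all entries 0.0115). It became -0.00139 after quantile normalization (all entries 0.00954) and -0.0226 with the length trend removed (all entries with a length 0.000272). Removing the length trend sets the median of all entries near 0 and does not fix that of the matrix genes. The 101 entries at an adjusted p under 0.05 became 51 with no filter, 54 without the trend, 29 with the length trend removed and 49 to 159 with each sample left out. The 6 synthesis genes became 2 after quantile normalization and with equal upper quartiles, 3 with the length trend removed and 2 to 7 with each sample left out, of which the counts outside 1.5 times were 2 to 3. The 2 maturation genes became 0 with no filter, quantile normalization, equal upper quartiles, no trend or the length trend removed, and 0 to 2 with each sample left out. The 4 receptor genes became 2 with a mean of at least 5 TPM, equal upper quartiles or the length trend removed, 1 after quantile normalization and 1 to 3 with each sample left out. The cause of these changes was not tested. With the replicate number as a block, the matrix count was 6, the maturation count 1 and the receptor count 2, beside 15.8% of all tested entries. Samples with the same number did not deviate together (correlations -0.0742 to 0.0592), so the numbers were not read as pairs. Depth per library is unknown, which limits genes near 1 TPM most, and scaling to a fixed total makes each value relative to the rest of the RNA.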
